A study of Homo sapiens with 14 samples.

Results

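Gene expression was compared between MiaPaCa2 cells that received a small interfering RNA (siRNA, a short duplex that directs the destruction of a matching mRNA) against RELA, here siRelA, and cells that received a scrambled control siRNA, siCtrl. MiaPaCa2 is an established human pancreatic cancer cell line. The comparison rests on 4 of the series' 14 whole-transcript Affymetrix arrays, chosen by their titles: siCtrl and siRelA, each after 9 h in Earle's balanced salt solution (EBSS) and after 9 h in the mock condition. That gives 1 array for each siRNA in each medium, and 2 pairs matched by medium. EBSS is described in the labels as free of glucose, amino acids and growth factors; the makeup of the mock medium is not given in the sources used here. All cells were transfected with the reagent INTERFERin. The series was designed to ask whether the NF-kB subunits RelA and RelB act on different genes in nutrient-starved cells.

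A further pair of arrays of the same set, from cells given an siRNA against RELB (siRelB) for 9 h in EBSS or mock, was used to compare one silencing siRNA with the other. The other 8 arrays were of cells given siCtrl or an siRNA against NUPR1 and kept in EBSS for 0, 3, 6 or 9 h, per the source field. The titles of the 0 h arrays name the medium DMEM instead. These arrays entered the estimate of the spread and the mean levels that decided which genes were tested. Those means also decided which cluster of probes stood for a gene. On 1 of these 8 arrays the title names another siRNA than the source field; the source field was followed. Nothing in the labels says that the arrays came from separate cultures, so each p-value measures only the spread between these arrays, which may be technical. The labels list 1 siRNA sequence for RelA, so an effect of losing RELA cannot be told apart from other effects of that sequence.

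RelA, also called p65, is a subunit of NF-kB, a family of dimeric transcription factors that inhibitor proteins of the IkB group hold in the cytoplasm. Stress and cytokine signals activate IkB kinases, the inhibitors are destroyed, and the freed dimers bind kappa-B elements in DNA and raise transcription of cytokines, survival genes and their own inhibitors. RelB acts mainly in the alternative branch, in which the precursor protein encoded by NFKB2 is processed.

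The 3 sequences listed for the siRNAs of this set are shown because they define the treatments; the labels do not say which of the siRelB sequences was used on the arrays. They are written 5′ to 3′ in lower case as the labels list their RNA bases, without the deoxythymidines at the 3′ end, and no part is marked. The longest run that either siRelB sequence shared with siRelA was 3 bases.
siRelA: gaucaauggcuacacagg
siRelB: ggauuugccgaauuaacaa
siRelB number 2: cugcggauuugccgaauuauu

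Levels are log2 values, so a difference of 1 is a 2-fold difference. Values were summarized for 18377 genes, and the 11026 with the higher mean levels were tested. Array medians over all 28869 clusters of probes ranged from 5.67 to 5.84 across the 14 arrays. The keratin gene KRT18 reached 13.3 and the intermediate filament gene VIM 12.78, whereas CDH1, EPCAM, CLDN7, ELF3 and CEACAM6, 5 of 11 measured epithelial and pancreatic cancer markers, were below the level required for testing (5.81). The same held for 7 of 10 leukocyte markers, PTPRC among them, 7 of 8 endothelial markers, PECAM1 and VWF among them, and 5 of 6 acinar and islet markers, PRSS1 among them. The brightest members of these lists were CD68, which reached 8.88, CLDN5 (7.31) and CELA3A (6.84).

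RELA itself was 9.19 in EBSS and 8.67 in mock after siCtrl, and 6.56 and 6.31 with siRelA. Both siRelA arrays thus lay below both siCtrl arrays. The difference was −2.49 ± 0.13 (standard error, n = 2 pairs), a 5.63-fold fall, with a limma adjusted p of 2.96e-10. It was the largest fall among all tested genes. With siRelB the level of RELA was 9.19 in EBSS and 8.70 in mock, close to siCtrl in each medium. In RNA of whole cultures, fewer cells with a transcript and less transcript per cell cannot be told apart.

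Across the tested genes, 2371 changed at an adjusted p under 0.05, which is 21.5%; 1116 rose (10.1%) and 1255 fell (11.4%). A change of at least 2-fold was seen for 36 of the genes that rose (0.327% of those tested) and 110 of those that fell (0.998%). The difference had the same sign in EBSS and in mock for 2368 of the 2371 genes. A call needs a large mean of the 2 differences, which favours the same sign, so this count is no independent evidence. Over all tested genes the differences of the 2 pairs had a Pearson correlation of 0.69. The median difference over all tested genes was 0.01, with 5% of genes below −0.58 and 5% above 0.50. Levels of the siRelA and siCtrl arrays did not overlap for 3316 genes (30.1%), of which 1538 were called. The median standard error was 0.13, and a 95% interval extended by a median of 0.28 to each side.

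These counts rested on all 4 arrays. Called genes numbered 1252 without the siCtrl array in EBSS, 1120 without siCtrl in mock, 1384 without siRelA in EBSS and 1181 without siRelA in mock. In the same order, 616, 429, 695 and 437 genes rose and 636, 691, 689 and 744 fell. RELA kept its call in all 24 other settings tried, at −2.62 to −2.36.

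**Figure D1:**
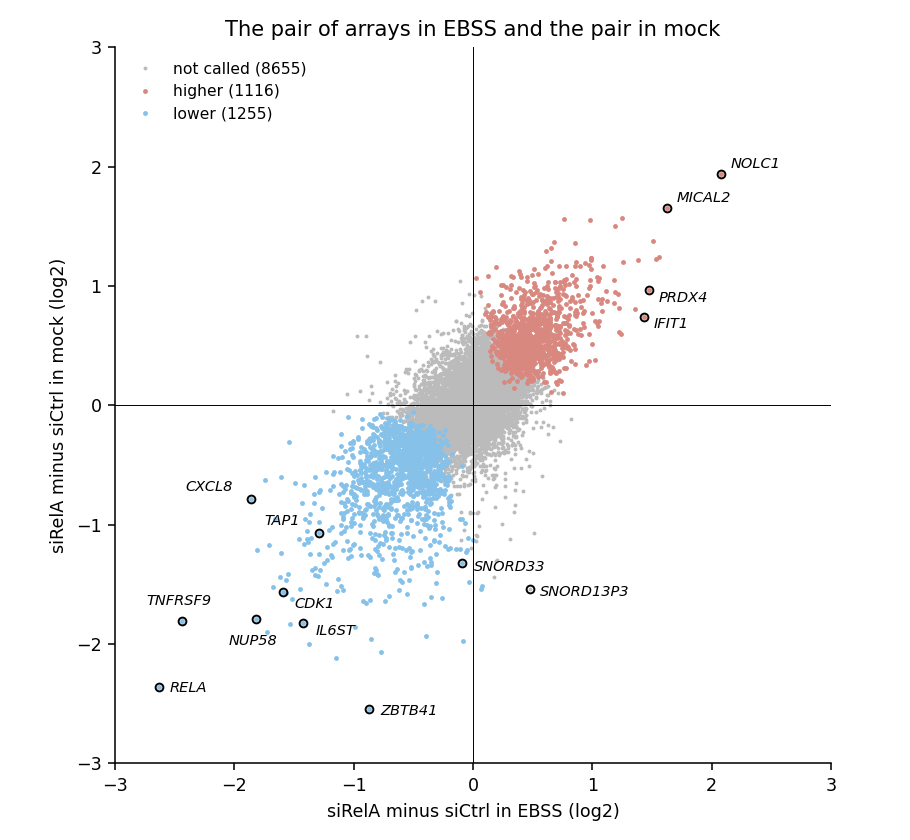
Each point is 1 of the 11026 tested genes, with the siRelA minus siCtrl difference of the EBSS pair on the x axis and of the mock pair on the y axis (both log2). Red genes were called higher (1116) and blue ones lower (1255); RELA lies at the lower left (−2.63 and −2.36), NOLC1 at the upper right (2.08 and 1.94), and SNORD13P3 below the axis in mock only (0.47 and −1.54).

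Of the 5 NF-kB subunit genes, RELA and NFKB2 fell and none rose, where 11.4% of all tested genes fell and 10.1% rose. NFKB2, which encodes the precursor p100, was 8.79 in EBSS and 7.70 in mock after siCtrl and 8.31 and 7.21 with siRelA. It was lower in each medium by about the same amount, −0.49 ± 0.13 (adjusted p = 0.0097), although the levels of the groups overlapped because they differed more between media than between siRNAs. RELB was 8.41 and 7.11 with siCtrl and 7.87 and 6.93 with siRelA, a difference of −0.36 ± 0.17 that did not pass (adjusted p = 0.15). REL, the c-Rel gene, differed by −0.37 ± 0.14 (adjusted p = 0.0717). NFKB1, which encodes p105 and p50, was −0.48 in the EBSS pair and 0.20 in the mock pair, and the joint difference of −0.14 ± 0.15 did not pass (adjusted p = 0.575). NFKB2 lost its call without any 1 of the 4 arrays (adjusted p up to 0.101).

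Of 13 tested inhibitors and feedback regulators, 3 fell and 1 rose, where 11.4% of all tested genes fell and 10.1% rose. NFKBIA, which encodes the inhibitor IkB-alpha and is itself a classical RelA target, was 10.59 in EBSS and 10.52 in mock after siCtrl and 9.63 and 10.23 with siRelA. Both siRelA arrays were the lower ones, the EBSS array more so, and the joint difference was −0.62 ± 0.14 (adjusted p = 0.00351). NFKBIE, encoding IkB-epsilon, was 7.90 and 7.31 with siCtrl and 7.24 and 7.02 with siRelA, a fall of 0.47 on the log2 scale (adjusted p = 0.0119). OTULIN, which encodes a deubiquitinase for linear ubiquitin chains, differed by −0.45 ± 0.13 (adjusted p = 0.0169). NFKBIB, encoding IkB-beta, went the other way, from 7.98 and 7.24 to 8.54 and 8.16, a rise of 0.74 ± 0.15 (adjusted p = 0.00134).

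The ubiquitin-editing gene TNFAIP3 (A20) and the adaptor gene TRAF1 were below the level required for testing and have values only. TNFAIP3 was 6.28 and 5.70 with siCtrl and 5.33 and 5.11 with siRelA, and TRAF1 was 5.74 and 5.40 against 5.19 and 4.98. In both genes the siRelA arrays were the 2 lower ones. Levels of the 2 groups did not overlap, in either direction, for 30.1% of all tested genes. Among the regulators that did not pass, NFKBIZ differed by −0.34 and CYLD by −0.30, while BCL3, NFKBID, TNIP1, TNIP2, ZC3H12A, PDLIM2 and COMMD1 lay between −0.29 and 0.20. Leaving out the siCtrl or the siRelA array in EBSS ended the calls for NFKBIA (adjusted p up to 0.226), NFKBIE (0.227) and OTULIN (0.368), and leaving out siCtrl in mock ended that for NFKBIB (0.0683).

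**Figure D2:**
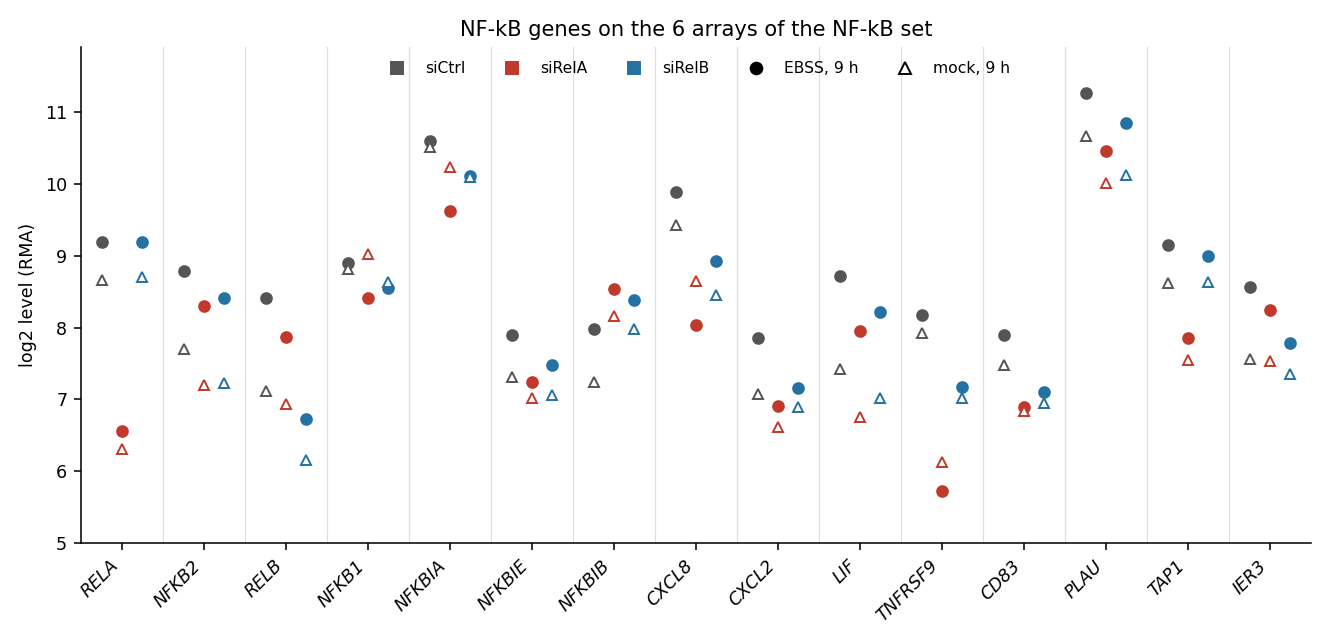
Log2 levels of 15 NF-kB genes on the 6 arrays of the set (grey siCtrl, red siRelA, blue siRelB; filled circles EBSS, open triangles mock; 1 array per symbol). The red symbols of RELA, TNFRSF9 and TAP1 lie below both other colours in each medium, while those of IER3 (8.24 and 7.54) lie between siCtrl and siRelB.

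Kinases and adaptors that feed into NF-kB were mostly not called. Of 14 tested, 3 fell and 1 rose, against 11.4% and 10.1% of all tested genes. TBK1, a kinase related to the IkB kinases that acts in innate immune signalling, was 6.47 in EBSS and 7.83 in mock after siCtrl and 5.08 and 6.71 with siRelA, −1.26 ± 0.15 (adjusted p = 1.3e-05). BIRC2, the gene of the ubiquitin ligase cIAP1, fell from 8.94 and 9.28 to 7.77 and 8.61, −0.92 ± 0.13 (adjusted p = 5.16e-05). CHUK, which encodes IKK-alpha, fell from 7.09 and 8.25 to 6.37 and 7.56, −0.70 ± 0.14 (adjusted p = 0.00122). TRAF3, a brake on the alternative pathway, rose by 0.58 ± 0.15 (adjusted p = 0.0107); its EBSS pair differed by 0.23 and its mock pair by 0.92. The catalytic partner IKBKB had a difference of 0.31 ± 0.12 (adjusted p = 0.0776) and the regulatory subunit IKBKG one of 0.10 ± 0.14 (adjusted p = 0.671). TRAF3 lost its call without the siCtrl or the siRelA array in mock (adjusted p up to 0.36); TBK1, BIRC2 and CHUK kept theirs in every setting.

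The 3 lists of known NF-kB targets held 76 genes, of which 68 were measured and 37 tested. Among the 37, 13 fell (35.1%, against 11.4% of all tested genes), 1 rose and 23 were not called, and their median difference was −0.12. The lists were drawn up with earlier results of these arrays known, so the counts describe them and are no independent evidence. Of the 31 measured targets below the level required for testing, 10 were lower and 5 higher in both media. No share over all untested genes is given here, so these counts have no background and carry no test. Among the 31, IL6 and ICAM1 were lower and VCAM1 and PTGS2 higher in both media. TNF, CXCL10, CCL20 and MMP9, also among the 31, had opposite signs in EBSS and mock.

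Among cytokine genes 9 of 23 measured were bright enough to test. Of these 9, 4 fell and none rose, against 11.4% and 10.1% of all tested genes. CXCL8, which encodes the neutrophil chemokine interleukin-8, was 9.89 in EBSS and 9.43 in mock after siCtrl and 8.03 and 8.65 with siRelA. The groups did not overlap, and the difference of −1.32 ± 0.22 was a 2.5-fold fall (adjusted p = 0.000262). LIF, a cytokine of the interleukin-6 family, fell from 8.72 and 7.42 to 7.96 and 6.75, −0.72 ± 0.14 (adjusted p = 0.00119). The chemokine gene CXCL2 fell from 7.86 and 7.08 to 6.91 and 6.61, −0.71 ± 0.15 (adjusted p = 0.00165). For CXCL5 the fall was smaller, −0.38 ± 0.12 (adjusted p = 0.0322). CXCL1 had opposite signs in the 2 media, −0.06 in EBSS and 0.76 in mock, and did not pass (adjusted p = 0.18). CCL5, CSF1, IL32 and LTB lay between −0.05 and 0.02. CXCL2 lost its call without siCtrl or siRelA in EBSS (adjusted p up to 0.11), and CXCL5 without any 1 of the 4 arrays, after quantile normalization and after median centring (adjusted p up to 0.244).

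Among surface and matrix genes 5 of 10 tested fell and none rose, against 11.4% and 10.1% of all tested genes. TNFRSF9, which encodes the costimulatory receptor 4-1BB, had the second largest fall of all tested genes: it was 8.17 in EBSS and 7.93 in mock after siCtrl and 5.73 and 6.12 with siRelA, −2.12 ± 0.15 (adjusted p = 1.49e-08), a 4.36-fold fall. IL6ST, the gene of the shared signalling receptor gp130, fell from 6.70 and 8.09 to 5.28 and 6.26, −1.62 ± 0.16 (adjusted p = 1.03e-06). CD83, an activation marker of antigen-presenting cells, fell from 7.90 and 7.48 to 6.90 and 6.84, −0.82 ± 0.14 (adjusted p = 0.000352). PLAU, which encodes urokinase, a protease that activates plasminogen, fell from 11.26 and 10.66 to 10.45 and 10.01, −0.73 ± 0.10 (adjusted p = 2.99e-05). In all 4 genes the siRelA arrays were the 2 lower ones. These genes were named because they were called, which favours this, and 30.1% of all tested genes had no overlap in either direction. The tetraspanin gene CD82 differed by −0.41 ± 0.13 (adjusted p = 0.029) and lost its call without any 1 of the 4 arrays, after median centring and with the trend on gene span removed (adjusted p up to 0.253). The urokinase receptor gene PLAUR had a difference of −0.27 ± 0.11 (adjusted p = 0.105), and CD44 of 0.09 ± 0.06 (adjusted p = 0.324).

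Over all tested genes 11.4% fell and 10.1% rose. Of 18 tested survival and stress targets, 1 rose and 4 fell. Besides BIRC2, these were TNFAIP2 (8.03 and 7.72 with siCtrl, 7.42 and 7.31 with siRelA; −0.51 ± 0.14, adjusted p = 0.0102), HIF1A and CFLAR. HIF1A, the oxygen-regulated transcription factor gene, differed by −0.49 ± 0.12 (adjusted p = 0.00718), and CFLAR, which encodes the caspase-8 inhibitor c-FLIP, by −0.42 ± 0.12 (adjusted p = 0.0131). BCL2L1, the gene of the anti-apoptotic protein BCL-XL, was 9.95 and 8.92 with siCtrl and 10.35 and 9.83 with siRelA, a rise of 0.66 ± 0.12 (adjusted p = 0.000798).

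SOD2, XIAP, IRF1, MYC, CCND1, GADD45B and BCL2, well-known NF-kB targets in other cells, did not pass, with differences from −0.34 (IRF1) to 0.26 (MYC). The early response gene IER3, for which the series also lists siRNAs, was 8.57 and 7.56 with siCtrl and 8.24 and 7.54 with siRelA, and its difference of −0.17 ± 0.14 did not pass (adjusted p = 0.45). The stress gene NUPR1 did not pass either, at −0.29 ± 0.14 (adjusted p = 0.174). Calls were lost without 1 array for TNFAIP2 and HIF1A (either EBSS array or siRelA in mock; adjusted p up to 0.178 and 0.12), CFLAR (any of the 4; 0.166) and BCL2L1 (either mock array; 0.0657).

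The promoters of these targets were searched for the kappa-B consensus, the degenerate 10-base NF-kB motif, on both strands of 300-base windows from 250 bases before to 50 after the RefSeq transcription start (GRCh38.p14). A match was present in 12 of 17 cytokine genes, 7 of 16 surface and matrix genes, 4 of 18 survival genes, 4 of 13 inhibitors, 4 of 11 antigen presentation genes, 1 of 12 kinases and adaptors and 2 of 4 subunit genes with a promoter entry. These list counts include measured members too dim to test, such as IL6 and CXCL10, and the target lists hold known NF-kB targets. The counts describe the lists and not the response to siRelA. Of the 12 cytokine genes with a match, CXCL2 and CXCL5 were called, and CXCL1, IL32 and LTB were tested and not called. The others were too dim to test. Over all tested genes 21.5% were called. Over all tested genes the share with a match was 13.5% (1173 of 8704), and it was 10.8% over all 27305 RefSeq promoters. Genes that rose held a match in 13.9% of windows, genes that fell in 11.4% and genes not called in 13.7%. It was 18.2% among those that fell at least 2-fold (16 of 88) and 6.25% among those that rose at least 2-fold (2 of 32). A match is a description of the letters and not evidence of binding.

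Shown here are 4 genes that fell, because their matches are among the sequences behind these counts, and TRAF3, which rose and also has a match. CXCL5, IL6ST and CFLAR also fell and have a match, and are not shown. Capitals mark the matching bases (overlapping matches on the 2 strands are joined), read 5′ to 3′ on the strand of the gene, with GRCh38.p14 coordinates. The matches shown began between 33 and 81 bases before the start. The first 3 windows, of TNFRSF9, CXCL2 and NFKBIA, belong to genes whose falls ranged from 0.62 to 2.12 on the log2 scale.
TNFRSF9, chr1:7940879-7940938, minus strand: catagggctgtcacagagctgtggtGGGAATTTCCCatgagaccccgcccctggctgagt
CXCL2, chr4:74099239-74099298, minus strand: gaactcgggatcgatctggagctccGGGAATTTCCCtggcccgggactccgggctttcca
NFKBIA, chr14:35404796-35404855, minus strand: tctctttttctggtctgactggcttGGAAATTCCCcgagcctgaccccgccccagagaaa
TAP1, chr6:32853742-32853801, minus strand: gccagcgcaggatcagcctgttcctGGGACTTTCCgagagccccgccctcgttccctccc
TRAF3, chr14:102777391-102777448, plus strand: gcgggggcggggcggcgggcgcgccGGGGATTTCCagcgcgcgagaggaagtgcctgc

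Genes of antigen presentation by MHC class I were mostly not called, with TAP1 as the main exception. Of 11 tested, 2 fell and 1 rose, against 11.4% and 10.1% of all tested genes. TAP1, which encodes a subunit of the transporter that carries peptides into the endoplasmic reticulum, was 9.14 in EBSS and 8.62 in mock after siCtrl and 7.85 and 7.55 with siRelA. All siRelA values lay below all siCtrl values, with a difference of −1.18 ± 0.14 (adjusted p = 6.71e-06), a 2.27-fold fall that held in every setting. PSMB9, its neighbour in the genome and a subunit gene of the immunoproteasome, was 8.36 and 8.45 with siCtrl and 8.09 and 7.72 with siRelA, −0.50 ± 0.16 (adjusted p = 0.0283). PSMB8, the neighbour on the other side, had a difference of −0.24 ± 0.19 (adjusted p = 0.427). CALR, the gene of the chaperone calreticulin, rose by 0.38 ± 0.09 (adjusted p = 0.00463). Calls were lost without 1 array for PSMB9 (either siCtrl array or siRelA in mock, and also without the filter and after median centring; adjusted p up to 0.607) and CALR (either mock array; 0.0837). The genes B2M, TAPBP, ERAP1, ERAP2 and TAP2 did not pass.

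The largest changes were mostly in genes outside the NF-kB lists. Of the 15 largest falls, RELA, TNFRSF9 and IL6ST belong to those lists. The others were RNF141 (−1.81), NUP58 (−1.81), ZBTB41 (−1.71), ITGB3BP (−1.69), COPS2 (−1.68), CENPK (−1.63), ACBD5 (−1.60), CDK1 (−1.58), HSPA4L (−1.57), LSM14A (−1.57), LRRC40 (−1.53) and ANP32E (−1.51). NUP58, which encodes a protein of the central channel of the nuclear pore, was 7.54 in EBSS and 8.50 in mock after siCtrl and 5.72 and 6.71 with siRelA (adjusted p = 1.32e-08). COPS2, a subunit gene of the COP9 signalosome, was 7.98 and 9.07 against 6.45 and 7.23 (adjusted p = 8.78e-07). ITGB3BP and CENPK both encode centromere proteins, and ITGB3BP was 6.66 and 7.55 against 5.28 and 5.55 (adjusted p = 2.74e-06). ACBD5, a gene of a peroxisomal membrane protein, was 7.28 and 8.12 against 5.60 and 6.59 (adjusted p = 4.78e-07). Among these 15 genes the groups did not overlap in 14, the exception being HSPA4L, whose level differed strongly between media. Over all tested genes the share without overlap was 30.1%. The 15 were chosen for the size of their change, which favours a lack of overlap.

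The 15 largest rises were led by NOLC1, which encodes a nucleolar phosphoprotein that binds small nucleolar ribonucleoproteins. NOLC1 was 8.18 in EBSS and 8.76 in mock after siCtrl and 10.26 and 10.70 with siRelA, a 4.02-fold rise of 2.01 ± 0.11 (adjusted p = 2.96e-10). MICAL2, an actin-oxidizing monooxygenase gene, rose from 6.11 and 6.30 to 7.73 and 7.95, 1.64 ± 0.14 (adjusted p = 2.83e-07). ZW10, a gene of the mitotic checkpoint and of vesicle transport, rose from 6.31 and 7.18 to 7.82 and 8.56, 1.44 ± 0.14 (adjusted p = 1.12e-06). The groups did not overlap in any of the 15, against 30.1% of all tested genes, and the choice by size again favours this. The others were HABP4 (1.41), STX12 (1.40), COL6A3 (1.38), SETD7 (1.34), GANAB (1.30), H2BC12 (1.27), DHX37 (1.23), PRDX4 (1.22), ZNF426 (1.16), TBC1D9B (1.13), CLIP2 (1.12) and OGFR (1.11). Their products include a lysine methyltransferase (SETD7), a glucosidase subunit that trims glycans in the endoplasmic reticulum (GANAB) and an endoplasmic reticulum peroxiredoxin (PRDX4). All 30 of these genes, the 15 largest falls and the 15 largest rises, kept their call in every setting. Because they were chosen for their large changes, this is no independent evidence.

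Of 26 tested G2/M genes, 10 fell (38.5%, against 11.4% of all tested genes), none rose and 16 were not called, with a median difference of −0.21. CDK1, the kinase gene that drives entry into mitosis, was 7.87 in EBSS and 8.50 in mock after siCtrl and 6.28 and 6.93 with siRelA, −1.58 ± 0.12 (adjusted p = 6.96e-08). TTK, a spindle checkpoint kinase gene, fell from 6.98 and 7.89 to 5.56 and 6.72, −1.29 ± 0.18 (adjusted p = 4.43e-05). KIF11, the gene of a spindle motor, fell from 7.22 and 8.69 to 6.13 and 7.74, −1.02 ± 0.15 (adjusted p = 6.26e-05). HMMR, whose product binds hyaluronan and spindle microtubules, differed by −0.99 ± 0.18 (adjusted p = 0.000632), a call lost without siCtrl in mock (0.0684). With 1 of the 4 arrays left out, between 7 and 10 members were called lower.

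Replication and G1/S genes had 5 falls and 4 rises among 30 tested, near the shares over all tested genes (11.4% and 10.1%). POLE2, a subunit gene of DNA polymerase epsilon, was 6.31 and 7.30 with siCtrl and 5.56 and 6.43 with siRelA (−0.81 ± 0.16, adjusted p = 0.00098). The replication origin gene ORC6 differed by −0.69 ± 0.13 (adjusted p = 0.000847), the helicase subunit gene MCM6 by −0.65 ± 0.13 (adjusted p = 0.00136) and GINS3 by −0.57 ± 0.14 (adjusted p = 0.00581). MCM6 lost its call without siRelA in EBSS (adjusted p = 0.102) and GINS3 without either EBSS array (up to 0.28); over all 4 left-out arrays 3 or 4 members of this list were called lower and at most 1 higher.

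Replication-dependent histone genes had 12 falls and no rises among 30 tested (40%; 11.4% of all tested genes fell), and a median of −0.37; their near-identical copies share probes, so single genes are uncertain. H4C2 was 10.90 and 10.77 with siCtrl and 10.51 and 9.82 with siRelA (−0.67 ± 0.13, adjusted p = 0.00106), and the siRelA array in mock was the lowest. H4C4, H2AC4 and H3C1 had differences of −0.68, −0.67 and −0.65, again with the lowest level on the siRelA array in mock, and each lost its call without at least 2 of the 4 arrays. The number of members called lower went from 0 to 12 depending on which 1 of the 4 arrays was left out, and H4C2 lost its call without siRelA in mock (adjusted p = 0.0957). H2BC12, another histone gene, rose by 1.27 and was not on the list.

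Among 20 tested p53 targets 8 fell (40% of the list, where 11.4% of all tested genes fell), none rose and 12 were not called, with a median difference of −0.20. RRM2B, a p53-induced ribonucleotide reductase subunit gene, was 6.66 in EBSS and 7.30 in mock after siCtrl and 5.72 and 6.24 with siRelA, a 2-fold fall (standard error 0.14 on the log2 scale, adjusted p = 5.12e-05). FAS, the death receptor gene, fell from 6.74 and 7.30 to 5.90 and 6.30, −0.92 ± 0.14 (adjusted p = 0.000101). GADD45A, a growth arrest gene, fell from 9.85 and 9.27 to 8.78 and 8.57, −0.89 ± 0.12 (adjusted p = 2.92e-05). Both FAS and GADD45A can also be regulated by NF-kB. MDM2, the gene of the ubiquitin ligase that degrades p53, differed by −0.61 ± 0.13 (adjusted p = 0.00194), a call lost without siCtrl in EBSS (0.127). MiaPaCa2 carries mutant p53, and between 4 and 8 members were called lower with 1 of the 4 arrays left out.

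In the BCL2 family and caspase list 3 of 20 tested fell and 1 rose, a count near the 11.4% and 10.1% over all tested genes. DIABLO, whose product antagonizes inhibitors of apoptosis, was 8.53 and 8.02 with siCtrl and 7.42 and 7.58 with siRelA (−0.77 ± 0.14, adjusted p = 0.000757). CASP2 differed by −0.43 ± 0.12 (adjusted p = 0.0164), and CFLAR and BCL2L1 are described above. DIABLO lost its call without either EBSS array (adjusted p up to 0.0656), and CASP2 without any 1 of the 4 and after median centring (0.157).

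Genes of the ATF4 and amino acid response, which EBSS is known to engage, fell in 9 of 27 cases (33.3%; 11.4% over all tested genes) and rose in none, with a median of −0.20. DDIT4, an inhibitor gene of mTORC1 signalling, was 9.83 in EBSS and 8.29 in mock after siCtrl and 8.09 and 7.66 with siRelA. Its siRelA values were the 2 lowest, and the difference was −1.74 in EBSS and −0.63 in mock, jointly −1.19 ± 0.18 (adjusted p = 0.000123). PSAT1, a serine synthesis gene, fell from 9.95 and 9.84 to 8.67 and 9.13, a 2-fold fall (standard error 0.12 on the log2 scale, adjusted p = 1.48e-05). CHAC1, a glutathione-degrading enzyme gene, fell from 8.77 and 6.90 to 7.23 and 6.60, −0.92 ± 0.19 (adjusted p = 0.00145). SLC7A11, the cystine transporter gene, was −1.18 in EBSS and −0.43 in mock, −0.80 ± 0.17 jointly (adjusted p = 0.002). The last 2 lost their calls without either EBSS array (adjusted p up to 0.146 and 0.133). The number of falls on the list went from 2 to 12 with 1 of the 4 arrays left out.

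Of 30 tested autophagy and lysosome genes 9 rose and 3 fell, where 10.1% of all tested genes rose and 11.4% fell, and the median was 0.22. ATG14, a subunit gene of the lipid kinase complex that starts autophagosomes, was higher with siRelA by 0.62 in EBSS and by 1.17 in mock, without overlap of the levels, and its joint difference was 0.90 ± 0.13 (adjusted p = 8.4e-05). CTSB, the gene of the lysosomal protease cathepsin B, rose from 9.45 and 9.08 to 10.05 and 9.84, 0.68 ± 0.10 (adjusted p = 7.4e-05). ATG2A, a lipid transfer protein gene, rose by 0.62 ± 0.13 (adjusted p = 0.00178). ATG5, which is needed to attach LC3 to membranes, fell from 7.67 and 8.05 to 6.79 and 7.38, −0.77 ± 0.12 (adjusted p = 0.000144). ATG2A lost its call without siRelA in EBSS (adjusted p = 0.0663), and 3 to 7 members were called higher with 1 of the 4 arrays left out.

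Cholesterol synthesis genes fell in 5 of 13 cases and rose in 2, against 11.4% and 10.1% of all tested genes. HMGCS1, an early enzyme gene of the pathway, was 7.49 and 8.94 with siCtrl and 6.44 and 7.66 with siRelA (−1.17 ± 0.13, adjusted p = 6.04e-06). IDI1, a gene of isoprenoid synthesis, fell from 8.29 and 9.34 to 7.56 and 8.21 (−0.93 ± 0.14, adjusted p = 9.45e-05). INSIG1, which encodes a protein that retains SREBP factors in the endoplasmic reticulum, rose from 7.24 and 8.36 to 8.23 and 9.14 (0.88 ± 0.13, adjusted p = 8.85e-05). SREBF2, the gene of the factor that drives the pathway, differed by −0.46 ± 0.14 (adjusted p = 0.0223), a call lost without any 1 of the 4 arrays and after median centring (up to 0.185). On the whole list 2 members were called lower and 1 higher with any 1 of the 4 arrays left out.

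Heat shock genes fell in 6 of 15 cases and rose in 1, against the same background. HSPA4L was 6.14 in EBSS and 8.01 in mock after siCtrl and 4.57 and 6.45 with siRelA, the same difference of −1.57 in each medium (adjusted p = 1.96e-06). HSPA13 differed by −0.97 ± 0.14 (adjusted p = 8.69e-05), DNAJB4 by −0.63 and CHORDC1 by −0.62. Chaperones of the endoplasmic reticulum had 2 falls and 1 rise among 19, with HSP90B1 at −0.38 (adjusted p = 0.0132) and DNAJB9 at −0.37 (adjusted p = 0.045). DNAJB4 and CHORDC1 lost their calls without 1 array (either mock array, and any but siCtrl in mock; adjusted p up to 0.334 and 0.126), HSP90B1 without 3 of the 4 arrays (0.167) and DNAJB9 in 15 of 23 settings (0.398). With 1 of the 4 arrays left out, 3 or 4 heat shock genes were called lower.

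Of 14 tested hypoxia targets, 3 fell and 1 rose, where 11.4% of all tested genes fell and 10.1% rose. P4HA1, a collagen hydroxylase gene (−0.70 ± 0.14, adjusted p = 0.00119), VEGFA (−0.52 ± 0.15, adjusted p = 0.0174) and LDHA (−0.32 ± 0.07, adjusted p = 0.0024) fell, and PFKFB3, a regulator of glycolysis, rose (0.76 ± 0.14, adjusted p = 0.0006). VEGFA was 7.54 in EBSS and 6.95 in mock after siCtrl and 6.66 and 6.80 with siRelA, so most of its difference came from the EBSS pair, and it lost its call without either EBSS array (adjusted p up to 0.558). P4HA1 lost its call without siRelA in EBSS (0.0713), and LDHA without siCtrl in mock and without the intensity trend (up to 0.0859).

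NRF2 targets had 3 rises and 2 falls among 15. ME1, the malic enzyme gene, rose from 7.32 and 7.88 to 8.13 and 8.70 (0.81 ± 0.12, adjusted p = 7.53e-05), TKT by 0.49 (adjusted p = 0.00195) and OSGIN1 by 0.40 (adjusted p = 0.0297). OSGIN1 lost its call without any 1 of the 4 arrays and without the filter (adjusted p up to 0.163). Ribosomal protein genes had 1 rise and 2 falls among 19, and oxidative phosphorylation genes 0 rises and 3 falls among 20. The called members were RPL27 (0.35), RPL7 and RPS23 (both −0.40) on the first and COX6C (−0.36), NDUFA1 (−0.33) and ATP5PO (−0.25) on the second, and each lost its call without at least 1 array; the backgrounds are 10.1% higher and 11.4% lower.

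YAP-TEAD and TGF-beta targets rose in 5 of 14 cases (35.7%, against 10.1% of all tested genes) and none fell, with a median of 0.23. AXL, a receptor tyrosine kinase gene, was 9.24 in EBSS and 8.56 in mock after siCtrl and 9.74 and 9.39 with siRelA (0.66 ± 0.14, adjusted p = 0.00197). CCN1, a secreted matrix protein gene that responds to YAP and to serum, rose from 9.15 and 7.96 to 9.65 and 9.10 (0.83 ± 0.20, adjusted p = 0.00515). TEAD4, a partner of YAP, rose by 0.53 (adjusted p = 0.00552) and LATS2, a kinase gene that restrains YAP, by 0.48 (adjusted p = 0.0253). With 1 of the 4 arrays left out between 0 and 5 members were called higher. AXL, CCN1 and LATS2 lost theirs without either mock array (adjusted p up to 0.0777, 0.227 and 0.525), and TEAD4 without siCtrl in EBSS or siRelA in mock (0.128).

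Immediate early genes had 3 rises and no falls among 25, near the background: CCN1, FOS (0.49, adjusted p = 0.0272) and IER2 (0.32, adjusted p = 0.049). FOS lost its call without any 1 of the 4 arrays and IER2 in 13 of 24 settings (adjusted p up to 0.301 and 0.542). Of 19 interferon-stimulated genes, IFIT1, which encodes a sensor of foreign RNA, rose from 7.37 and 9.02 to 8.80 and 9.76 (1.09 ± 0.18, adjusted p = 0.000295), and none fell. Collagen, laminin and integrin genes had 2 rises (ITGB4 at 0.45 and LAMC1 at 0.33) and 2 falls (ITGA6 at −0.53 and ITGAV at −0.48) among 17, each lost without at least 2 of the 4 arrays. The share called was 5.26% on the interferon list and 23.5% on the collagen, laminin and integrin list. Over all tested genes it was 21.5% (10.1% higher and 11.4% lower).

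Markers of cell identity were few among the tested genes. The share called over all tested genes was 21.5%. MUC1, a mucin gene of epithelia, rose from 6.34 and 6.11 to 7.14 and 6.79 (0.74 ± 0.13, adjusted p = 0.000409), the only call among 6 tested epithelial and pancreatic cancer markers. Of 5 tested mesenchymal genes, AXL (described above) and VIM rose and ZEB1 fell. VIM rose by 0.26 ± 0.07 (adjusted p = 0.0095) and ZEB1, a repressor of epithelial genes, fell by 0.51 on the log2 scale (adjusted p = 0.00774), both calls lost without either mock array (adjusted p up to 0.202 and 0.145). Of the fibroblast list 3 of 10 were tested; ACTA2 rose by 0.73 ± 0.13 (adjusted p = 0.000372) and COL1A2 by 0.44 ± 0.15 (adjusted p = 0.0472, lost in 15 of 24 settings), while DCN, LUM, PDGFRA and PDGFRB were below the level required for testing. The mean level of the fibroblast list was 5.11 in EBSS and 5.11 in mock after siCtrl and 5.29 and 5.13 with siRelA. Its brightest member, COL1A2, reached 10.78. A part of such cells in the results was not tested. No leukocyte, endothelial, acinar or islet marker was called.

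**Figure D3:**
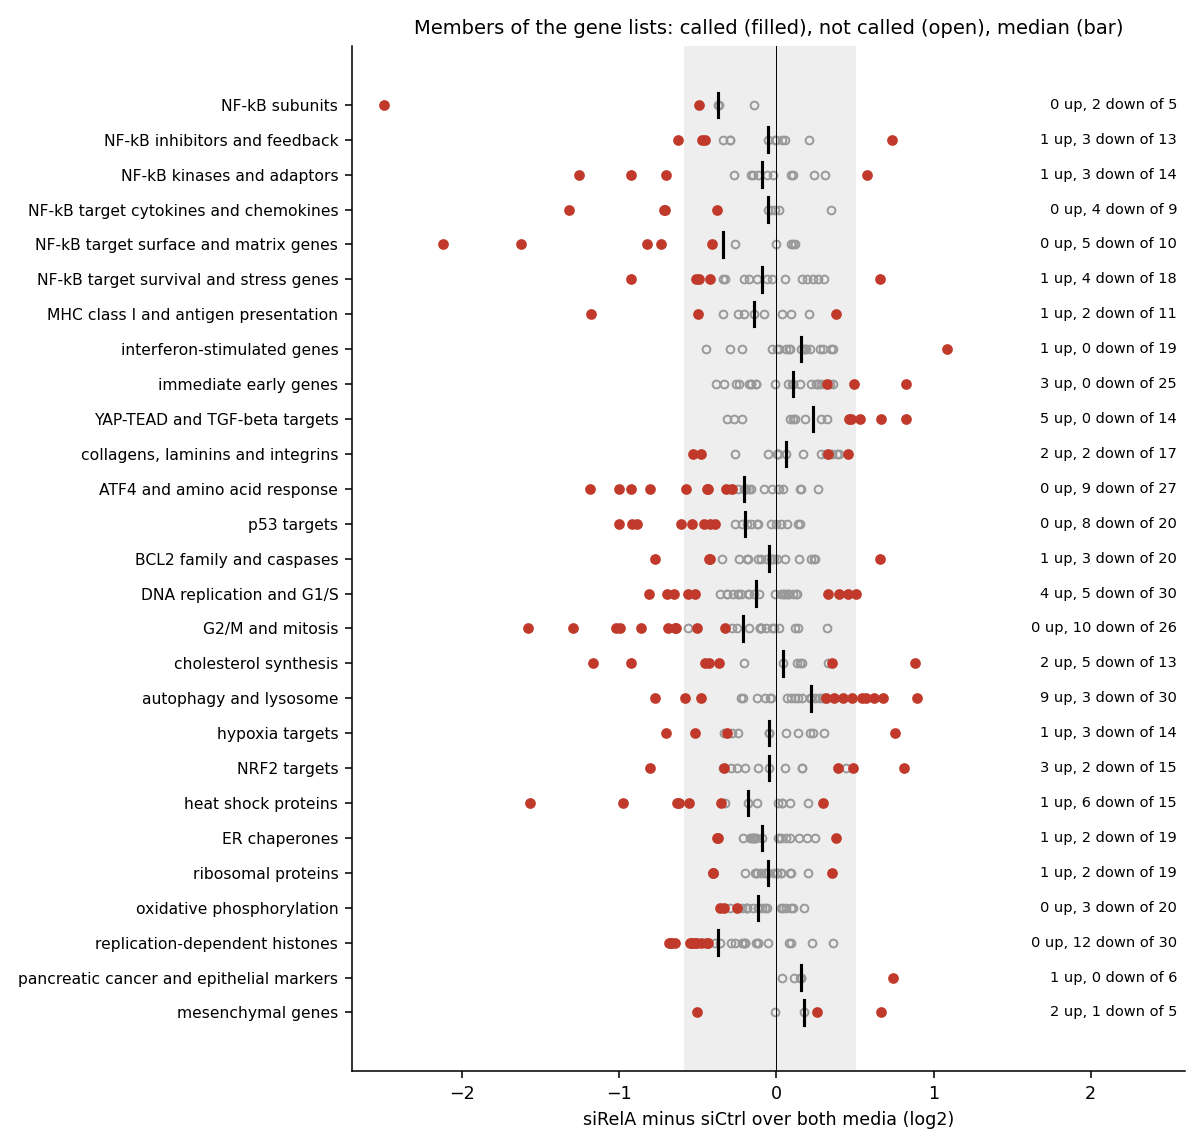
Each point is 1 tested member of a gene list at its siRelA minus siCtrl difference (log2, both media together); filled points were called at an adjusted p under 0.05, bars are list medians, and the grey band runs from the 5th to the 95th percentile of all tested genes (−0.58 to 0.50). The G2/M, p53 and ATF4 lists have calls on the left of 0 alone (10, 8 and 9), and the autophagy and lysosome list has most of its calls on the right (9 rises and 3 falls).

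The siRelB arrays show which of these changes differ from silencing of another subunit in the same set. Between siRelA and siRelB 1110 genes differed (10.1%), with 508 higher (4.61%) and 602 lower (5.46%) in siRelA. The targeted genes separated: RELA differed by −2.51 ± 0.13, siRelA minus siRelB (adjusted p = 5.25e-10), and RELB, at 6.73 in EBSS and 6.16 in mock with siRelB, was 0.95 ± 0.17 higher with siRelA (adjusted p = 0.00125). The number of genes was smaller without siRelA in EBSS (646), siRelA in mock (357), siRelB in EBSS (442) or siRelB in mock (313), and RELB lost its call without siRelB in EBSS (adjusted p = 0.0831).

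Apart from RELA, TNFRSF9 and TAP1 had the largest differences between the siRNAs on the NF-kB and antigen presentation lists. TAP1 was 9.00 in EBSS and 8.64 in mock with siRelB, close to siCtrl, and the siRelA minus siRelB difference was −1.11 ± 0.14 (adjusted p = 3.36e-05). TNFRSF9 was 7.17 and 7.03 with siRelB, between siCtrl and siRelA, with a difference of −1.17 ± 0.15 (adjusted p = 4.22e-05). Of the members called against siCtrl, IL6ST (−0.76, adjusted p = 0.00397), PSMB9 (−0.63, adjusted p = 0.0137), TBK1 (−0.51, adjusted p = 0.0411) and OTULIN (−0.43, adjusted p = 0.0432) were also lower with siRelA. BIRC2 (0.47, adjusted p = 0.023) and CXCL5 (0.49, adjusted p = 0.0134) were lower with siRelB than with siRelA: BIRC2 was 7.45 and 7.98 and CXCL5 8.27 and 8.93 on the siRelB arrays. TAP1 and TNFRSF9 kept these calls in every setting, whereas the other 6 named here each lost theirs without at least 2 arrays. Not every difference is named. With siRelA, 2 of 9 cytokine genes, 1 of 10 surface and matrix genes and 3 of 18 survival genes were higher than with siRelB. Lower were 2 surface and matrix genes and 0 on the other 2 target lists. Kinases and adaptors had 2 higher and 3 lower of 14, and antigen presentation genes 1 and 4 of 11. Among other lists, 5 of 26 G2/M genes were higher and 2 lower. The p53 targets had 0 higher and 4 lower of 20, ATF4 genes 0 and 4 of 27, and autophagy and lysosome genes 1 and 1 of 30. Over all tested genes, 4.61% were higher and 5.46% lower. CDK1, RRM2B and DDIT4, the largest falls on the G2/M, p53 and ATF4 lists, were also below siCtrl with siRelB. Their siRelB differences in EBSS and mock were −1.15 and −1.06, −0.38 and −0.28, and −1.25 and −0.33.

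For the other NF-kB targets that fell, the difference between siRelA and siRelB did not pass, which does not show that the siRNAs act alike. It was −0.35 ± 0.22 for CXCL8, −0.27 ± 0.14 for LIF, −0.26 ± 0.15 for CXCL2, −0.25 ± 0.10 for PLAU, −0.17 ± 0.14 for NFKBIA, −0.16 ± 0.14 for CD83, −0.06 ± 0.13 for NFKB2, −0.01 ± 0.14 for CHUK and 0.03 ± 0.12 for CFLAR. For TNFAIP2 it was −0.17 ± 0.14, for NFKBIE −0.14 ± 0.13, for CD82 0.02 ± 0.13 and for HIF1A 0.29 ± 0.12. On the siRelB arrays CXCL8 was 8.93 in EBSS and 8.46 in mock, LIF 8.22 and 7.02, and CD83 7.11 and 6.95. These levels are below siCtrl in each medium and were read against the same siCtrl arrays.

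**Figure D4:**
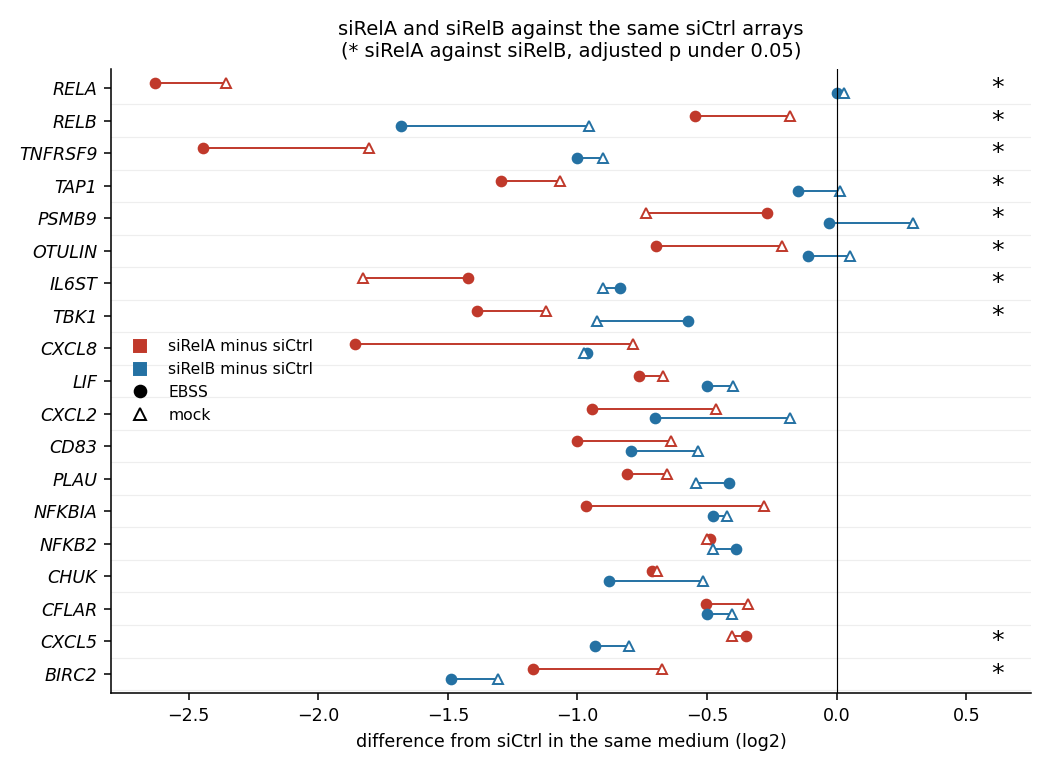
For 19 genes, the differences from siCtrl in the same medium (log2) are drawn for siRelA (red) and siRelB (blue), as circles for the EBSS pair and triangles for the mock pair; the line joins the pairs of 1 siRNA. Stars mark genes for which siRelA and siRelB differed, such as TAP1 (−1.29 and −1.07 with siRelA); both colours use the same siCtrl arrays.

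The largest differences between the siRNAs were again outside the NF-kB lists. After RELA, the genes that were lowest in siRelA relative to siRelB were RNU5D-1 (−1.57), NUP58 (−1.46), ACBD5 (−1.43), WDR54 (−1.37), CTDSPL2 (−1.34), RTRAF (−1.31), SNORA22 (−1.26), SCARNA17 (−1.24) and SNORA75 (−1.23); 4 of these 9 are genes of small nuclear or nucleolar RNAs. Those highest were DDAH1 (1.94), RAB21 (1.61), IDH3A (1.52), RBM24 (1.49), KCTD20 (1.45), RAB22A (1.30), ATP8B1 (1.29), RAP1B (1.25), SERPINB8 (1.23) and RNF182 (1.21). DDAH1, which encodes an enzyme that degrades methylated arginine, was 8.74 in EBSS and 8.97 in mock after siCtrl, 9.28 and 9.94 with siRelA and 7.66 and 7.69 with siRelB. In DDAH1, IDH3A, RBM24, KCTD20 and ATP8B1 the siRelA arrays were above and the siRelB arrays below siCtrl in each medium.

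Of the 15 largest falls against siCtrl, 14 were also lower with siRelA than with siRelB, COPS2 (−0.41 ± 0.16, adjusted p = 0.122) being the exception. Of the 15 largest rises, 5 were higher with siRelA than with siRelB: NOLC1 (0.49), HABP4 (0.71), SETD7 (0.47), H2BC12 (1.07) and CLIP2 (0.61). NOLC1 was 9.74 and 10.23 on the siRelB arrays, against 8.18 and 8.76 with siCtrl. H2BC12 apart, all of the 15 largest rises were also above siCtrl with siRelB in each medium, read against the same siCtrl arrays. With siRelB, GANAB was higher than siCtrl by 1.63 in EBSS and 1.56 in mock, and OGFR by 1.42 and 1.27. Both comparisons use the same siRelA arrays, so these counts are not independent of the choice of genes.

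The difference between siRelA and siCtrl depended on the medium for 4 of 11026 genes (0.0363%), all small nucleolar RNA (snoRNA) genes, whose products guide chemical modification or processing of ribosomal RNA. At an unadjusted p under 0.05, 572 genes (5.19%) differed. The count depended on the arrays and columns of the model: it was 11 to 25 with 1 of the 8 NUPR1 arrays left out, 12 with siRelA alone allowed to depend on the medium, and 40 in that model on the 6 arrays of the set (1 residual degree of freedom). The spread for this test came from the NUPR1 arrays alone, and the median standard error was 0.27. NFKBIA and CXCL8, whose differences were larger in EBSS, were not called here.

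SNORD33 was 12.09 in EBSS and 11.86 in mock after siCtrl and 12.00 and 10.53 with siRelA, so only the siRelA array in mock was low; the EBSS difference exceeded the mock difference by 1.23 (adjusted p = 0.000142). SNORD13P3 was 10.03 and 9.39 with siCtrl and 10.51 and 7.85 with siRelA (2.01, adjusted p = 0.00136). SNORD13 was 10.46 and 9.79 against 10.97 and 8.71 (1.59, adjusted p = 0.0147), and SNORD57 10.42 and 10.13 against 10.78 and 9.30 (1.19, adjusted p = 0.0147). SNORD13P3 and SNORD13 are near-identical copies and may share signal. None of the 4 kept its call without the intensity trend in the variance (adjusted p up to 0.222), SNORD13 and SNORD57 also lost theirs with the trend on gene span removed, and SNORD57 after median centring.

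Over all 86 tested snoRNA genes, 25 fell and none rose with siRelA, where 11.4% of all tested genes fell and 10.1% rose. Their median difference was −0.18 in EBSS and −0.42 in mock, against −0.02 and 0.04 for 10498 protein-coding genes. The siRelA array in mock is thus low in snoRNAs as a class, and whether this array's RNA or labelling has a part in it was not tested. SCARNA17, a guide RNA of Cajal bodies, was low in both media, 9.85 and 8.77 with siRelA against 10.98 and 10.23 with siCtrl (−1.30 ± 0.12, adjusted p = 8.6e-07).

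**Figure D5:**
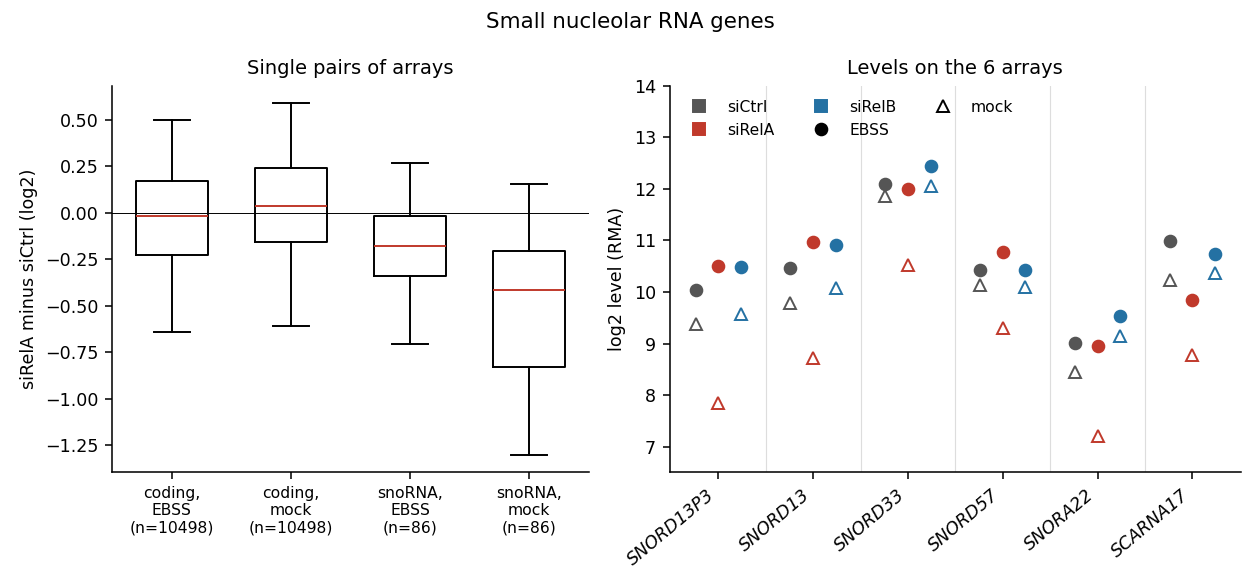
Left, siRelA minus siCtrl differences (log2) of the single pairs of arrays for 10498 protein-coding and 86 snoRNA genes (line median, box quartiles, whiskers 5th to 95th percentile); the snoRNA medians are −0.18 in EBSS and −0.42 in mock. Right, log2 levels of 6 small RNA genes on the 6 arrays, coloured by siRNA (circles EBSS, triangles mock); the open red triangle of siRelA in mock is the lowest symbol of each gene.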

How the data were processed

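Total RNA (200 ng per sample, per the labels) was labelled with a whole-transcript kit and hybridized to 14 arrays. The authors deposited log2 expression values from RMA, per the submitters' processing notes, which also name limma; no version or annotation is stated there. Of 28869 clusters, 21062 were annotated, 19310 with 1 symbol and 1752 with several; 19279 matched a current symbol by Entrez identifier, giving 18377 genes. The brightest cluster stood for each of 685 genes that had several. Genes in the lowest 40% by mean level (under 5.81) were dropped, which left 11026 to test.

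With R 4.3.3 and limma 3.58.1 (data.table version 1.17.8), a model of set by condition plus siRNA, with 9 columns, was fitted to all 14 arrays (eBayes with intensity trend; 5 residual degrees of freedom, 19.6 in total). An added siRNA-by-medium term left 3. Benjamini-Hochberg adjustment ran over all tested genes, at 0.05. The fits were tested on simulated data. Values of single pairs carry no test. With so few arrays, their number limits the precision. Gene span was taken from RefSeq on GRCh38.p14.

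The 31 gene lists, the members and the tests were chosen with earlier results of these data known. Named genes are NF-kB subunits and inhibitors, IER3, NUPR1, the 15 largest rises and falls, every called NF-kB target, kinase or adaptor, up to 4 called members of other lists, and the 10 largest either way of further contrasts. Uncalled targets, the untested dim genes, PSMB8 and other uncalled antigen presentation genes were named after their values were seen. RefSeq promoters were matched for 8704 tested genes; 23 members of the NF-kB lists had no entry and were not searched. Alternatives covered the filter, scaling, variance model, clusters, gene span, arrays in the fit and each array left out.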

Additional observations from a re-analysis of the deposited data

Results flagged for a closer look

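For 4 genes the siRelA difference in EBSS and that in mock differed in the test of the difference itself: SNORD13P3 by 2.01, SNORD13 by 1.586, SNORD33 by 1.234 and SNORD57 by 1.191 on the log2 scale, each higher in EBSS. In each of them the siRelA array in mock held the lowest level. All 4 calls were absent without an intensity trend in the variance, and the cause was not tested.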

How the results depend on the processing

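Over the 10 settings other than the fits with 1 array left out, the siRelA against siCtrl count stayed between 2007 and 2525. Without 1 of the 8 NUPR1 arrays, which keeps all 4 arrays of the comparison, the count was 2136 to 2720. In no setting did a called named gene change direction. Of 129 named genes that were called, 66 kept the call in every setting. With 1 of the 14 arrays left out, 1120 to 2720 genes were called, 429 to 1332 higher and 636 to 1388 lower; without siCtrl or siRelA in mock, 38.3% and 37% of the calls were rises, against 47.1%. For siRelA against siRelB the range was 313 to 1442. For the medium dependence it was 4 to 25; the count was 0 without an intensity trend, 2 with the trend on gene span removed, 12 with siRelA by medium alone and 40 with that model on the 6 arrays of the set; the same model gave 17 without either siCtrl array, where siRelB stands in for it. The last 3 of these fits were chosen after seeing the data. Fewer arrays give fewer degrees of freedom, and otherwise the cause was not tested. The medium dependence could not be fitted without either siRelA array. Arrays are paired by medium, which is a block of the model throughout; the labels give no replicate numbers for another pairing. Median centring moved the median of all genes to 0.04. Weak signals near background limit the 31 dim NF-kB targets most.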
